A study of Homo sapiens with 2 samples.

Results

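The S100 and annexin genes of BT549 cells were compared between cells overexpressing the long non-coding RNA SNHG15 and cells carrying a control vector. The members were all genes of the deposited table whose symbol is that of an S100 protein, of an annexin or of S100PBP, with pseudogenes left out. This gave 23 of 19029 genes, made up of 12 S100 genes, 10 annexin genes and S100PBP. BT549 is an established human breast cancer cell line. The cells with the SNHG15 overexpression genotype are called SNHG15 cells here, and those with the control vector, which the titles call pcIP2, vector cells. Both were grown in DMEM with fetal bovine serum, and 1 Illumina library per genotype was made from total RNA, so no difference given here has a replicate check and each interval covers counting error only. Whether either culture was a clone or a pool, and how much protein any member made, is not stated in the labels or files.

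S100 proteins are small calcium-binding proteins of the EF-hand type. They mostly work as dimers that open a hydrophobic surface when calcium binds, and some are also released and act on cell surface receptors. Annexins bind negatively charged membrane lipids in the presence of calcium and take part in membrane repair, vesicle traffic and the cortical cytoskeleton. The families meet in complexes in which an S100 dimer joins annexin molecules, such as annexin A2 with S100A10, annexin A1 with S100A11 and annexin A11 with S100A6. Several of these genes are highly expressed in mesenchymal-like and basal-like breast cancer cells.

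Sequencing depth was 16570496 counts for SNHG15 cells and 20799017 for vector cells. SNHG15 itself had 34450 counts in SNHG15 cells and 466 in vector cells, so the libraries matched their labels. Levels are given as CPM, a gene's share of its library's counts on a common scale set by TMM (a factor that sets the bulk of genes equal), and ratios as the SNHG15 library over the vector library with an exact 95% interval of the counts. A gene was measured where it averaged at least 1 CPM, which held for 12934 genes and 20 members. A gene was past 1.5-fold where its ratio reached that size and its interval excluded 1, and beyond 2-fold where the whole interval lay past 2-fold. The line's mesenchymal markers were present in both libraries, with vimentin (VIM) at 34469 counts in SNHG15 cells and 39817 in vector cells. The 6 mesenchymal markers summed to 4273 CPM in SNHG15 cells and 5093 CPM in vector cells, and 4 of the 6 were lower past 1.5-fold and SPARC was higher. Luminal epithelial markers, of which 3 of 7 were measured, summed to 794 CPM in SNHG15 cells and 1296 CPM in vector cells. Most of both sums was KRT18, at 702 CPM in SNHG15 cells and 1200 CPM in vector cells. KRT8 was also lower, at a ratio of 0.718, while GATA3 had a ratio of 1.11 (1.02 to 1.21). Fewer cells of a kind and less RNA per cell cannot be told apart in bulk libraries.

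Both families were abundant, and a few members carried most of each. Lengths differ among the genes, so levels of different genes are compared in the deposited FPKM, which divides by gene length. S100A11 was the highest member by FPKM in both libraries, at 459 FPKM in SNHG15 cells and 452 FPKM in vector cells. S100A6 followed at 132 FPKM in SNHG15 cells and 221 FPKM in vector cells, and S100A10 at 129 FPKM in SNHG15 cells and 145 FPKM in vector cells. These 3 S100 genes led the order in both libraries. Among annexins, ANXA5 was highest in SNHG15 cells, at 119.8 FPKM against 89.999 FPKM in vector cells. ANXA6 was highest in vector cells, at 108 FPKM in SNHG15 cells and 101 FPKM in vector cells. ANXA2 stood behind ANXA5 and ANXA6 in SNHG15 cells and also behind ANXA11 and ANXA1 in vector cells, at 57.0 FPKM in SNHG15 cells and 30.5 FPKM in vector cells. The FPKM of ANXA2 implies a gene model of 13.5 kb, against 0.680 kb for S100A11, so FPKM sets genes with long annotated models low.

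Summed over each family, S100 transcripts were lower and annexin transcripts higher, both by less than 1.5-fold. The 12 S100 genes summed to 1033 CPM in SNHG15 cells and 1326 CPM in vector cells, which was 1.28-fold lower (1.26 to 1.31). The 10 annexin genes summed to 2801 CPM in SNHG15 cells and 2516 CPM in vector cells, a ratio of 1.11 (1.10 to 1.13). The sums were also taken without the S100 gene and the annexin of the largest difference in CPM, a check chosen after the values were seen. Without S100A6 the other S100 genes were still lower on the TMM scale, at 1.11-fold (1.08 to 1.13). Without ANXA2 the other annexins had a ratio of 0.987 (0.974 to 1.002). As shares of all counts, with no TMM factor, the S100 genes made up 0.108% in SNHG15 cells and 0.127% in vector cells, and the annexins 0.292% in SNHG15 cells and 0.242% in vector cells, in the same directions. The annexins without ANXA2 made up 0.214% in SNHG15 cells and 0.200% in vector cells on that scale, so their direction depended on the scaling. The S100 genes without S100A6 made up 0.0809% in SNHG15 cells and 0.0826% in vector cells, so the size of their difference also depended on it. All 23 members together gave 3850.3 CPM in SNHG15 cells and 3847 CPM in vector cells.

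**Figure D1:**
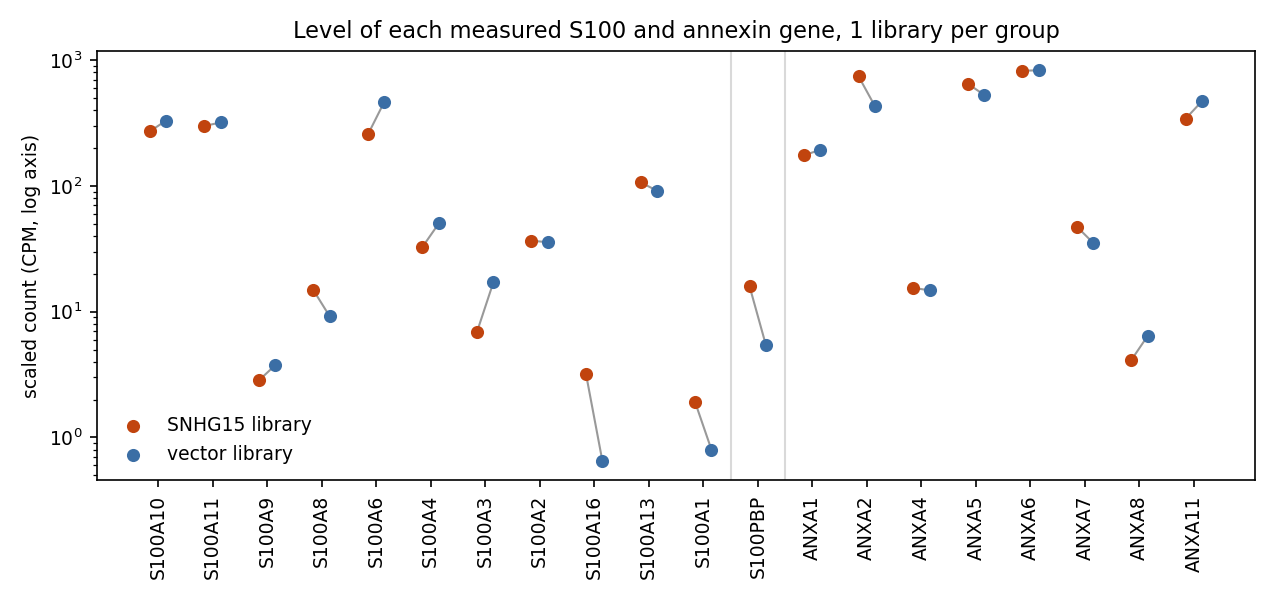
Scaled count (CPM, log axis) of each of the 20 measured members, with the point of SNHG15 cells on the left and that of vector cells on the right of each joined pair, and 1 library per group. The pairs of S100A6 and S100A3 stand lower in SNHG15 cells and those of S100A16, S100PBP and ANXA2 higher, while the pair of ANXA6 is level at 823 CPM in SNHG15 cells and 831 CPM in vector cells.

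Of the 20 measured members, S100A16 and S100PBP were higher beyond 2-fold and S100A3 was lower beyond 2-fold. The shares of all measured genes past the same limit were 2.2% higher and 2.45% lower. Past 1.5-fold, 5 members were higher (S100A16, S100PBP, S100A1, ANXA2 and S100A8), against a background of 13.3% of measured genes. In the other direction 4 were lower past 1.5-fold (S100A3, S100A6, S100A4 and ANXA8), against a background of 12.2%. With library totals in place of TMM, 5 members were higher and 2 lower past 1.5-fold. The share of all genes past that limit was not taken with library totals. On the TMM scale the other 11 members were past 1.5-fold in neither direction. The S100 genes split into 3 higher, 3 lower and 5 neither, and the annexins into 1 higher, 1 lower and 6 neither. The median log2 ratio was -0.09 over the S100 genes and 0.03 over the annexins, beside 0.02 over all measured genes. Among measured members the S100 genes ranged more widely, with log2 ratios of -1.29 to 2.12, against -0.63 to 0.79 for the annexins. That contrast depended on the minimum level, since ANXA3 and ANXA10, which fell under it, had log2 ratios of -2.72 and -3.30.

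**Figure D2:**
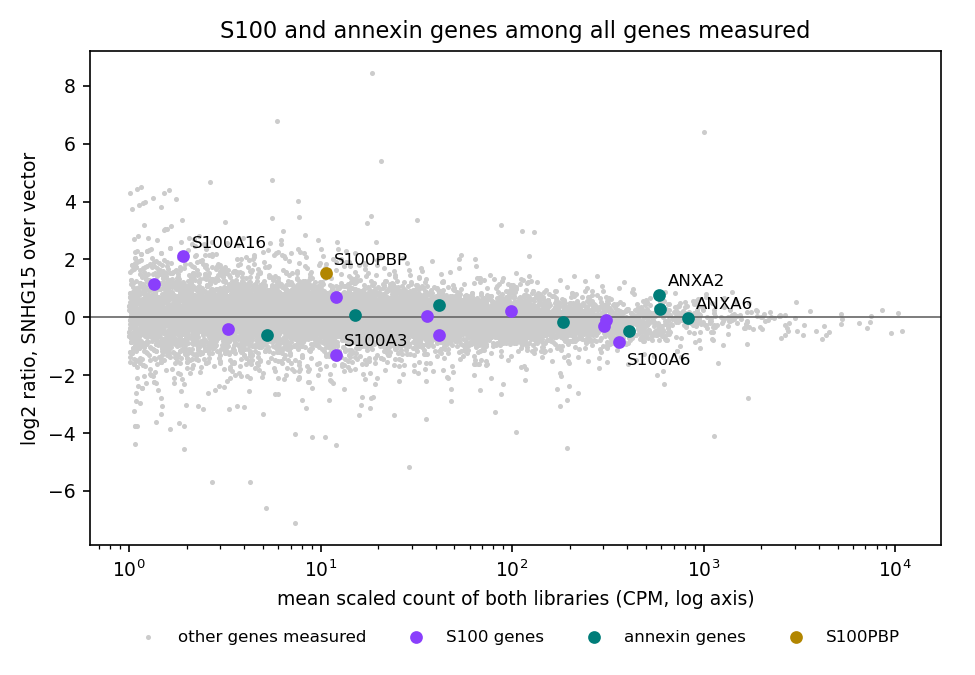
Log2 ratio of the SNHG15 library over the vector library against the mean scaled count of both libraries (CPM, log axis) for the 12934 measured genes, with the members in colour. The members lie within the cloud of other genes, with S100A16, S100PBP and S100A3 farthest from 0 among those labelled.

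**Figure D3:**
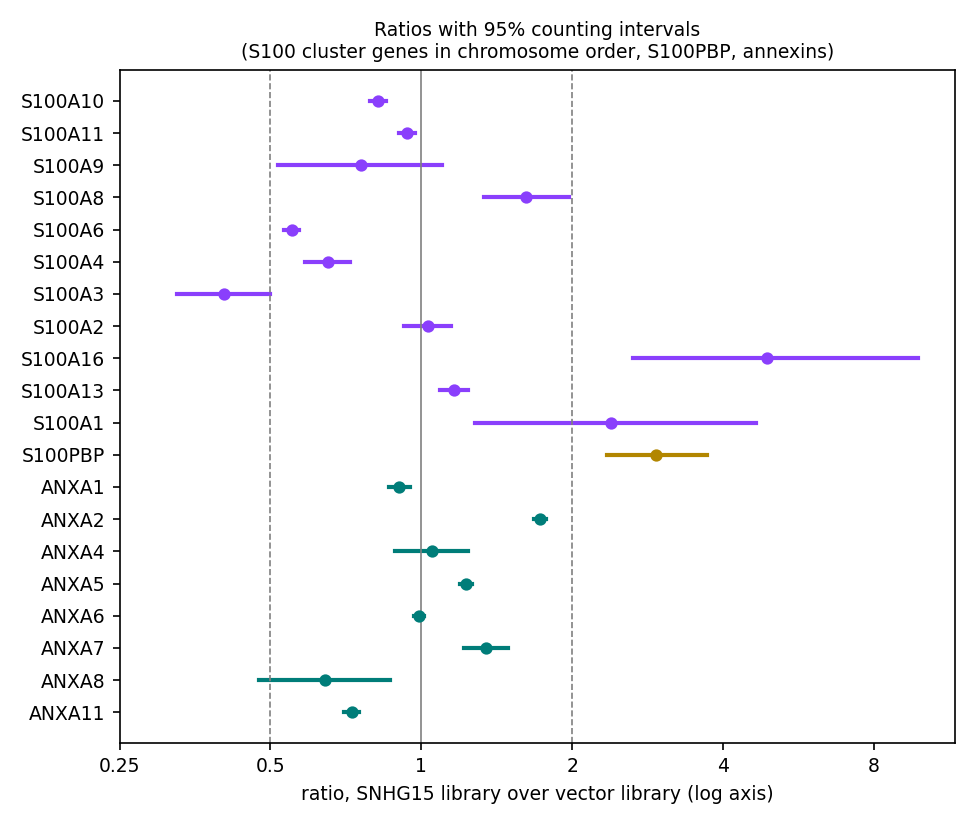
Ratio of the SNHG15 library over the vector library (log axis) for each measured member, with exact 95% counting intervals as bars and dashed lines at 0.5 and 2. S100A16 has the highest ratio at 4.90 and S100A3 the lowest at 0.404, and the bars are widest for the members with few counts.

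S100A6, S100A4 and S100A3 are next to each other among the listed S100 genes, on the minus strand of chromosome 1. All 3 were lower in SNHG15 cells. S100A6 (calcyclin), a partner of annexin A11 that is common in proliferating and mesenchymal cells, had 256.5 CPM in SNHG15 cells and 465.5 CPM in vector cells. These came from 4426 counts in SNHG15 cells and 9299 in vector cells, and the gene was 1.81-fold lower (1.75 to 1.88). It was the most abundant of the 3. The S100A6 ratio of 0.551 became 0.597 with library totals and 0.656 with the GC trend removed, both outside its interval and still past 1.5-fold. S100A4 (metastasin), which binds non-muscle myosin and is associated with cell motility, had 32.7 CPM in SNHG15 cells and 50.3 CPM in vector cells, and was 1.54-fold lower (1.39 to 1.71). S100A3, best known from the hair cuticle, had 119 counts in SNHG15 cells and 341 in vector cells. It was 2.48-fold lower (2.003 to 3.08), the lowest ratio of any measured member. With library totals in place of TMM the S100A4 ratio was 0.704, no longer past 1.5-fold, and the S100A3 ratio of 0.438 (0.352 to 0.541) was no longer beyond 2-fold. The annotated S100A4 locus contains that of S100A3, an overlap of 2044 bases on 1 strand, although no 100-base word is shared between their annotated transcripts. Summed, S100A3 and S100A4 were 1.70-fold lower (1.55 to 1.87).

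The sequences before a RefSeq start of each of these 3 genes are shown because the genes moved the same way and these starts are separate. Each is the 250 bases before a RefSeq start (GRCh38.p14), written 5′ to 3′ on the gene's strand, at chr1:153535992-153536241 for S100A6, chr1:153545807-153546056 for S100A4 and chr1:153549259-153549508 for S100A3. The S100A6 sequence lies within the annotated S100A6 locus, and those of S100A4 and S100A3 lie within the annotated S100A4 locus. Capitals mark matches on either strand to a TATA box spelled TATAAA, a GC box spelled GGGCGG or an AP-1 site spelled TGANTCA.
S100A6: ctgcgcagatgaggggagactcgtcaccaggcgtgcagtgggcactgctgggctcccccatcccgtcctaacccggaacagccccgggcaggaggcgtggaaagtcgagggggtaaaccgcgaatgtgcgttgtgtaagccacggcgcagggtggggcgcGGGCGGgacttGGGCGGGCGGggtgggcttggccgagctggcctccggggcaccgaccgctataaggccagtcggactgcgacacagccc
S100A4: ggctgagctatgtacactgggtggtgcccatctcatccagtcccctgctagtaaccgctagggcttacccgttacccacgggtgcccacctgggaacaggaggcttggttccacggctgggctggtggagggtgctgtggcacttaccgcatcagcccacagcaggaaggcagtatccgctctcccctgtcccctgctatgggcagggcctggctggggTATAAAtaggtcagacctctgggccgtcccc
S100A3: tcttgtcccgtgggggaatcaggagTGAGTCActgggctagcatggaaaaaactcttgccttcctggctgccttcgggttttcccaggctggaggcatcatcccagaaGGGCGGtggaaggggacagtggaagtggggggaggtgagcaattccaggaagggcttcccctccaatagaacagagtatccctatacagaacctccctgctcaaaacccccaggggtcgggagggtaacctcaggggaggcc
The S100A6 window held 3 GC boxes, 2 of them overlapping, and 24 CpG. The S100A4 window held a TATA box that began 31 bases before the start and no GC box. The S100A3 window held 1 GC box and 1 AP-1 site. No motif of the 3 was found in all of these windows. Across all 35116 windows of this length, 10.7% held TATAAA, 42.6% held GGGCGG and 6.57% held TGANTCA. RefSeq windows were matched for 21 members, and of their 33 windows 9 held TATAAA, 15 held GGGCGG and 4 held TGANTCA.

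The 11 S100 genes of chromosome 1 spanned 1649 kb (chr1:151982915-153632039, GRCh38) and did not move as a block. S100A2, the next S100 gene listed beside S100A3, had 36.7 CPM in SNHG15 cells and 35.6 CPM in vector cells. S100A2 is made by basal epithelial cells such as keratinocytes, and its ratio of 1.03 (0.923 to 1.15) did not exclude 1. S100A16, a broadly expressed family member, had 55 counts in SNHG15 cells and 13 in vector cells, a ratio of 4.90 (2.64 to 9.77). That was the highest ratio of any measured member, at a low level of 3.19 CPM in SNHG15 cells and 0.651 CPM in vector cells. The S100A16 ratio became 1.69 when 1 was added to each FPKM. S100A13, which takes part in the release of fibroblast growth factor without a signal peptide, had 107 CPM in SNHG15 cells and 91.8 CPM in vector cells, a ratio of 1.16 (1.09 to 1.24). S100A1, the calcium sensor of heart and skeletal muscle, had 33 counts in SNHG15 cells and 16 in vector cells, a ratio of 2.39 (1.28 to 4.65). That ratio became 1.23 when 1 was added to each FPKM. S100A1 and S100A13 overlap on opposite strands, and 10.1% of the 100-base words of S100A1 also occur in opposite-strand transcripts. S100A13 shares 13.6% of its words with AL162258.1 on its own strand, which had 42 counts in SNHG15 cells and 107 in vector cells. Whether the libraries kept strand is not stated in the labels or files, so the values of these genes are uncertain. Among the 6 other listed genes inside the S100 span or overlapping its end, AL162258.1 was the 1 measured, and it was 2.20-fold lower (1.53 to 3.22).

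S100A8 and S100A9, the subunits of calprotectin that neutrophils and monocytes make in large amounts, were low in both libraries. S100A8 had 256 counts in SNHG15 cells and 183 in vector cells, a ratio of 1.62 (1.33 to 1.97). S100A9 had 49 counts in SNHG15 cells and 75 in vector cells, and its ratio of 0.756 (0.517 to 1.10) did not exclude 1. Within a library, S100A8 had 5.22 counts for each S100A9 count in SNHG15 cells and 2.44 in vector cells. The change in that proportion was 2.14 (1.40 to 3.29), a value that does not depend on scaling. Of 6 myeloid markers, CD14 was the 1 measured, at 133 counts in SNHG15 cells and 347 in vector cells. PTPRC, LYZ and MPO were not listed by symbol among the genes. The myeloid list summed to 8.52 CPM in SNHG15 cells and 18.1 CPM in vector cells, lower where S100A8 was higher, and its part in the calprotectin values was not tested.

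S100A10 and S100A11, which pair with annexins, differed less. S100A10, which does not bind calcium and forms the core of the annexin A2 complex that recruits plasminogen, had 271 CPM in SNHG15 cells and 331 CPM in vector cells. It was 1.22-fold lower, with a ratio of 0.820 (0.789 to 0.851). S100A11, the partner of annexin A1, had 299.5 CPM in SNHG15 cells and 319.8 CPM in vector cells. Its ratio of 0.936 (0.903 to 0.972) became 1.02 with library totals, so its direction depended on the scaling. S100B, the glial and melanocytic family member on chromosome 21, had 0 counts in SNHG15 cells and 3 in vector cells, at the floor of 3 counts. Melanocyte and Schwann cell markers, 2 of 7 measured, summed to 3.54 CPM in SNHG15 cells and 2.95 CPM in vector cells. Keratinocyte markers, whose cells also make S100A2, summed to 38.3 CPM in SNHG15 cells and 61.7 CPM in vector cells, mostly from KRT10 at 34.9 CPM in SNHG15 cells and 46.2 CPM in vector cells. KRT14 had 28 counts in SNHG15 cells and 302 in vector cells, while KRT5, its usual partner, had 27 in SNHG15 cells and 7 in vector cells. The part of these markers in the values of S100A2 was not tested.

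S100PBP, on chromosome 1 outside the S100 group, encodes a nuclear protein that binds S100P and is not itself an S100 protein. It had 274 counts in SNHG15 cells and 108 in vector cells, at 15.9 CPM in SNHG15 cells and 5.41 CPM in vector cells. Its ratio was 2.94 (2.34 to 3.70). The ratio became 1.56 when 1 was added to each FPKM, which understates changes of low genes. The gene overlaps YARS1 on the opposite strand, with 1.53% of its words shared. YARS1 had a ratio of 0.969 (0.934 to 1.01), and so did not follow S100PBP.

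The annexin genes lie apart from each other, ANXA3, ANXA5 and ANXA10 on chromosome 4, ANXA7, ANXA8 and ANXA11 on chromosome 10, and ANXA4, ANXA6, ANXA1 and ANXA2 on chromosomes 2, 5, 9 and 15 in that order. ANXA2 had the highest ratio among them. Annexin A2 binds membranes and actin, and with S100A10 acts as a cell surface receptor for plasminogen. ANXA2 had 12796 counts in SNHG15 cells and 8584 in vector cells, at 742 CPM in SNHG15 cells and 430 CPM in vector cells. The ratio was 1.73 (1.68 to 1.77), past 1.5-fold and short of 2-fold. Its processed pseudogene ANXA2P2 had 5726 counts in SNHG15 cells and 3874 in vector cells, a ratio of 1.71 (1.64 to 1.78). There were 2.23 ANXA2 counts for each ANXA2P2 count in SNHG15 cells and 2.22 in vector cells, a change of 1.01 (0.960 to 1.06). The pseudogene thus held the same proportion to its parent in both libraries within counting error. With ANXA2P2 and ANXA2P1 added, the pooled ratio was 1.72 (1.68 to 1.76).

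A stretch of the parent and the pseudogene is shown because reads from one can be counted for the other. Over 1017 aligned coding bases of GRCh38 the copies were 98.4% identical, with 16 differences and a longest identical run of 221 bases. The stretch below covers chr15:60364434-60364523 on the minus strand for ANXA2 and chr9:33624422-33624511 on the plus strand for ANXA2P2, 5′ to 3′, with the 5 bases that differ in capitals.
ANXA2: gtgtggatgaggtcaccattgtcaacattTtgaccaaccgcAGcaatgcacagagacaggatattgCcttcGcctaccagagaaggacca
ANXA2P2: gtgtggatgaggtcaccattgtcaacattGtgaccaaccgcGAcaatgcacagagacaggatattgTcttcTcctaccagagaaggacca
Of the 10536 distinct 100-base words in the 38 annotated ANXA2 transcripts, 2.72% also occurred in ANXA2P2. The pseudogene is only 1020 bases long, so the share within the copied part is higher. The labels and files do not say how reads that match both were assigned. The 250 bases before a RefSeq start of ANXA2 (chr15:60397987-60398236, GRCh38.p14, minus strand) are shown with the same motifs in capitals, for comparison with the S100 windows.
ANXA2 upstream: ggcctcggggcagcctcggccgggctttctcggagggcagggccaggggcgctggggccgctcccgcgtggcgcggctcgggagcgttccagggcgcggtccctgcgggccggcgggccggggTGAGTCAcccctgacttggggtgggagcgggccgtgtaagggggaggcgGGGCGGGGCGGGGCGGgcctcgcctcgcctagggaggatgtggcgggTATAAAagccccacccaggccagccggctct
This window held 1 TATA box, 3 GC boxes that overlap each other, 1 AP-1 site and 28 CpG. The TATA box began 31 bases before the start, the same distance as in the S100A4 window.

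The other abundant annexins stood near or under 1.5-fold. ANXA6, whose protein carries a duplicated annexin core and binds late endosomes and the plasma membrane, had 823 CPM in SNHG15 cells and 831 CPM in vector cells. Its ratio of 0.991 (0.969 to 1.01) did not exclude 1 and became 1.07 with library totals. ANXA5, whose protein binds phosphatidylserine and is used to stain dying cells, had 651 CPM in SNHG15 cells and 529.97 CPM in vector cells, a ratio of 1.23 (1.20 to 1.26). ANXA11, which tethers RNA granules to lysosomes, had 343 CPM in SNHG15 cells and 473 CPM in vector cells, and was 1.38-fold lower, with a ratio of 0.726 (0.702 to 0.750). These intervals were narrow because each gene had many counts, with ANXA11, the lowest of them, at 5925 in SNHG15 cells and 9452 in vector cells. ANXA1, a mediator of glucocorticoid anti-inflammatory action, had 175 CPM in SNHG15 cells and 194 CPM in vector cells, a ratio of 0.904 (0.862 to 0.948). That ratio became 0.980 (0.934 to 1.03) with library totals, which did not exclude 1, and 0.7955 with the GC trend removed. ANXA7, which aggregates and fuses secretory granules, had 47.5 CPM in SNHG15 cells and 35.3 CPM in vector cells, a ratio of 1.35 (1.22 to 1.49). ANXA4, an epithelial annexin, had 267 counts in SNHG15 cells and 295 in vector cells, and its ratio of 1.05 (0.885 to 1.24) did not exclude 1.

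The 3 annexins with the fewest counts were all lower in SNHG15 cells. ANXA8, an epithelial annexin first described as an anticoagulant, had 71 counts in SNHG15 cells and 128 in vector cells, and was 1.56-fold lower (1.16 to 2.11). With library totals its ratio was 0.696, no longer past 1.5-fold. ANXA8 shares 55.2% of its words with ANXA8L1 and other copies, and ANXA8L1 had 49 counts in SNHG15 cells and 101 in vector cells. Together they were 1.65-fold lower (1.32 to 2.07), in the same direction as each copy alone. ANXA3, an annexin abundant in neutrophils, had 0 counts in SNHG15 cells and 12 in vector cells, at least 3.46-fold lower when a floor of 3 counts stands for SNHG15 cells. The exact interval, which also takes in the counting error of vector cells, gave a bound of 2.40-fold. ANXA10, best known from gastric epithelium, had 0 counts in SNHG15 cells and 19 in vector cells, at least 5.47-fold lower against the same floor, with a bound of 4.03-fold from the exact interval. Both averaged under 1 CPM and entered no count of measured members.

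The complexes that join the families shifted unequally. These proportions compare counts of 2 genes within a library, so the scaling between libraries cancels. ANXA2 had 2.73 counts for each S100A10 count in SNHG15 cells and 1.30 in vector cells, a change of 2.11 (2.01 to 2.21). The larger partner gained on the smaller one, since ANXA2 was higher and S100A10 lower. ANXA11 had 1.34 counts for each S100A6 count in SNHG15 cells and 1.02 in vector cells, a change of 1.32 (1.25 to 1.38). ANXA1 had 0.585 counts for each S100A11 count in SNHG15 cells and 0.606 in vector cells, and the change of 0.965 (0.909 to 1.03) did not exclude 1. Of the listed neighbours, S100A6 had 7.85 counts for each S100A4 count in SNHG15 cells and 9.25 in vector cells, a change of 0.848 (0.760 to 0.948). Transcript proportions are not protein stoichiometry, which was not measured.

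Genes on which these proteins act, and their relatives among calcium-binding proteins, were examined as lists. Their counts past 1.5-fold stand beside 13.3% of all measured genes higher and 12.2% lower. Of 5 measured S100 receptors none was past 1.5-fold, and their median log2 ratio was -0.02, which turned to 0.19 with the GC trend removed. Basigin (BSG), a receptor for S100A9, was the most abundant, at 22580 counts in SNHG15 cells and 28429 in vector cells, 1.09-fold lower. AGER, which encodes the receptor RAGE, had 45 counts in SNHG15 cells and 62 in vector cells. The annexin A1 receptors FPR1, FPR2 and FPR3 were not listed by symbol among the 19029 genes. Of 6 measured partners of S100A10 in plasminogen activation and membrane traffic, PLAU was past 1.5-fold. PLAU, which encodes urokinase, had 3454 counts in SNHG15 cells and 7923 in vector cells, 1.98-fold lower (1.90 to 2.06). The median log2 ratio of that list was -0.45, and -0.29 with the GC trend removed.

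The 11 measured intracellular targets of S100 proteins had a median log2 ratio of 0.01, or -0.04 with the GC trend removed, and 1 of them was higher past 1.5-fold. Ezrin (EZR), which links membrane to actin, had 313 CPM in SNHG15 cells and 192 CPM in vector cells, a ratio of 1.63 (1.57 to 1.70). MYH9, the non-muscle myosin heavy chain that S100A4 binds, was the most abundant target and had a ratio of 1.19. Of 10 measured calcium sensors, 3 were higher and 2 lower past 1.5-fold. Their median log2 ratio was 0.27, or 0.16 with the GC trend removed. The calmodulin genes encode an identical protein but differed in direction. CALM3 had 4043 counts in SNHG15 cells and 13118 in vector cells, 2.80-fold lower (2.71 to 2.90). CALM2 had 3042 counts in SNHG15 cells and 2341 in vector cells, a ratio of 1.504 (1.42 to 1.59). The neuronal calcium sensor HPCAL1 was 2.20-fold lower (2.12 to 2.28), and centrin 3 (CETN3) had a ratio of 1.51 (1.07 to 2.14). CIB1, a calcium- and integrin-binding protein, was the most abundant by FPKM, at 143 FPKM in SNHG15 cells and 142 FPKM in vector cells.

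Of 6 measured penta-EF-hand genes, CAPN1 and SRI were lower past 1.5-fold and none was higher. The median log2 ratio of the list was -0.44, or -0.37 with the GC trend removed. CAPN1, the protease calpain-1, was 1.79-fold lower (1.72 to 1.86), and sorcin (SRI), which binds ANXA7, was 1.51-fold lower (1.42 to 1.61). CAPNS1, the small calpain subunit and the most abundant of them, was 1.42-fold lower. Of 10 measured membrane repair genes, CAPN1 and EHD1 were lower past 1.5-fold and none was higher. The median of this list was -0.43, or -0.34 with the GC trend removed. EHD1, a membrane remodelling ATPase, was 1.58-fold lower (1.49 to 1.67). CHMP4B, an ESCRT subunit, was the most abundant of that list at 101 FPKM in SNHG15 cells and 129 FPKM in vector cells, 1.39-fold lower. Of 4 measured copines, which like annexins bind membranes with calcium, CPNE7 was lower at 2.01-fold (1.85 to 2.18) and none was higher. CPNE1, the most abundant copine, was 1.47-fold lower. The copine median was -0.42, or -0.31 with the GC trend removed. CAPN1 and CAPN2 stand in both the penta-EF-hand and the membrane repair list, so these lists are not independent. Over the measured genes of these lists and the listed neighbours of the S100 genes on chromosome 1, each counted once, 4 were higher and 9 lower past 1.5-fold. With library totals these were 7 and 7. The background was 13.3% higher and 12.2% lower on the TMM scale, and no such share was taken with library totals.

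**Figure D4:**
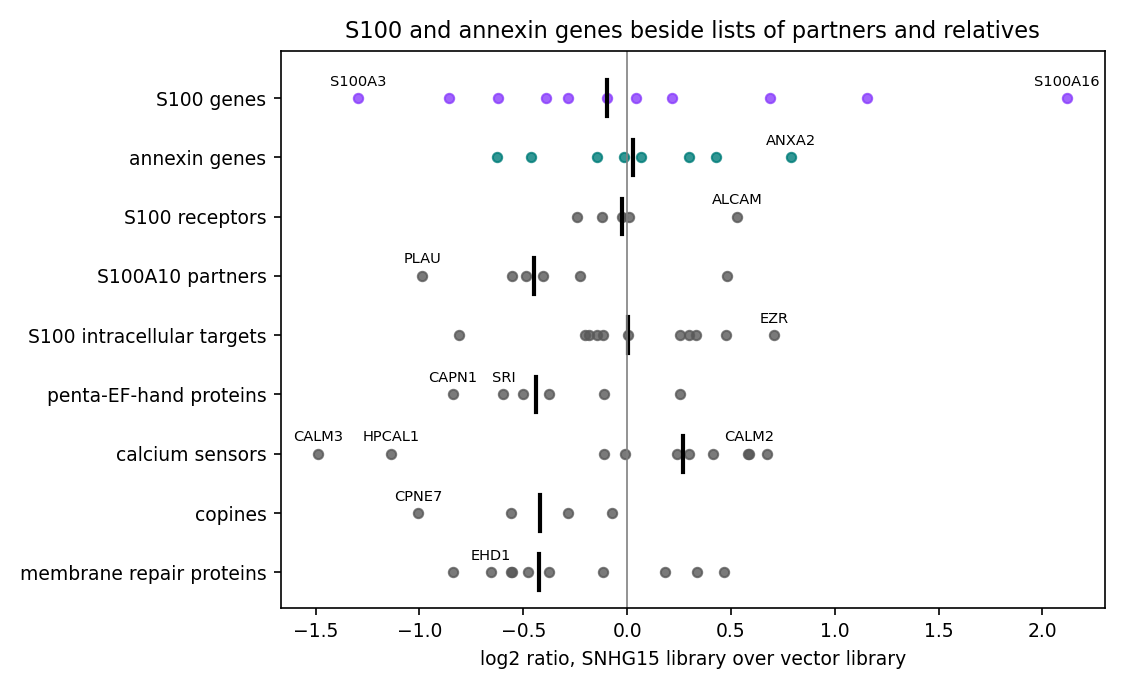
Log2 ratio of the SNHG15 library over the vector library for the measured S100 and annexin genes (the upper rows) and the measured genes of each related list, with 1 point per gene and a bar at each median. The medians of the S100A10 partner, penta-EF-hand, membrane repair and copine lists lie between -0.42 and -0.45, and CALM3 has the lowest value among the calcium sensors.

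In the authors' deposited table, 5 of the 23 members carried a call, against 8.15% of the 19029 genes. S100PBP and S100A16 were called up, and S100A3, ANXA3 and ANXA10 were called down. For S100PBP the authors' deposited table gave a log2 ratio of 1.67 with an adjusted p of 1.79e-07 from edgeR. For S100A3 the authors' deposited table gave a log2 ratio of -1.19 with an adjusted p of 1.24e-05 from edgeR. S100A6, ANXA2, S100A4 and S100A8 had an adjusted p under 0.05 in the authors' deposited table and no call. With 1 library per genotype such a p rests on an assumed spread between replicates.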

How the data were processed

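RNA of 1 library of SNHG15-overexpressing and 1 of vector-control BT549 cells was sequenced, with genotype taken from the labels. Counts in the deposited table are raw, as whole reads per gene, per the file headers. The authors deposited FPKM beside them, and the same gene length was used in both libraries. The deposited log2 ratios equal those of the FPKM, and the authors named edgeR in the title of the table that holds their p-values. Reads were placed on hg38, per the submitters' processing notes. The aligner, counter and strandedness are not given in the sources used.

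TMM factors (1.04 in SNHG15 cells, 0.960 in vector cells) came from edgeR 4.0.16 in R 4.3.3. Intervals are exact conditional-binomial (Clopper-Pearson) at 95%. Reads are not independent molecules, so intervals and floors of 3 counts (0.174 CPM in SNHG15 cells and 0.150 CPM in vector cells) cover counting error only. The median measured gene had 284 counts in SNHG15 cells and 315 in vector cells. A prior count of 2 entered each log2 ratio. With 1 library per genotype no test across replicates was possible. Loci, transcripts and GC content came from GENCODE 29 on GRCh38, and upstream windows from RefSeq (GRCh38.p14). Values were recomputed with size factors from DESeq2 1.42.0, library totals, other minimum levels, a ratio without its interval, a loess GC trend (span of 0.5) removed, other prior counts and FPKM with pseudocounts of 1 and 0.1.

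All measured members were named. Of each related list, up to 4 genes past 1.5-fold, ordered by the interval bound nearest to 1, and the most abundant by FPKM were named. AGER was named in addition after its values were seen, and 1 gene that the rule names is not reported here. The members and lists were chosen with earlier results of these data known. The procedure was tested on simulated data.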

Additional observations from a re-analysis of the deposited data

How the results depend on the processing

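No paired analysis was possible because each genotype had 1 library. No member past 1.5-fold changed direction under any alternative run, while S100A11 and ANXA6, past 1.5-fold in neither direction, did. Of 137 alternative values of single members 96 moved by less than their counting interval and 41 by more. The 96 include all values from the other minimum levels, which cannot change a member's ratio, so they overstate how stable the ratios were. The number of members beyond 2-fold, 3 as reported, was 5 with no minimum level and 1 on log2(FPKM + 1), which understates low genes. The number past 1.5-fold stayed between 6 and 11, beside 9 as reported. The share of all genes past 1.5-fold was taken for the reported setting alone, so counts at that limit under other settings have no background. All genes beyond 2-fold numbered 602 of 12934 as reported and 781 of 19029 with no minimum level. At a minimum of 5 CPM they numbered 394 of 9661. Over the same 12934 genes as reported they numbered 1334 without the interval, 302 on log2(FPKM + 1) and 968 on log2(FPKM + 0.1).

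Library totals moved the median of all measured genes by 0.12 on the log2 scale, and log2(FPKM + 0.1) by 0.10. The S100 median became 0.022 with library totals and with either FPKM pseudocount. The annexin median became 0.14 with library totals, 0.14 on log2(FPKM + 0.1) and -0.079 with no minimum level. Library totals and GC removal each left 5 members higher and 2 lower past 1.5-fold, beside 5 and 4 as reported, since S100A4 and ANXA8 no longer passed. S100A3 was beyond 2-fold under neither. All genes beyond 2-fold split into 285 higher and 317 lower as reported, 366 and 237 with library totals, and 309 and 247 with GC removal. The genes of the related lists and the chromosome 1 neighbours split into 4 higher and 9 lower as reported, 2 and 12 with DESeq2 size factors, and 7 and 7 with library totals. Depth limits S100A16, S100A1, S100A9 and ANXA8 most among the measured members, since these had the fewest counts.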
